A study of Mus musculus with 5 samples.

Results

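Collagen transcripts were examined in ribosome-bound mRNA from skeletal myocytes of the mouse soleus, a small postural muscle of the calf. The collagen genes were taken as every probe set whose single gene symbol in the array annotation reads Col, a type number, the letter a and a chain number. This gave 42 genes with 1 probe set each, of 19505 genes measured. All 5 animals belonged to a single group of sedentary mice carrying Myogenin-Cre and the RiboTag-Rpl22fl/fl-HA allele, and their left soleus was used. In these HA-RiboTagMyo mice, Cre under control of *Myog* adds an HA epitope to the ribosomal protein RPL22, and an anti-HA antibody then precipitates the tagged ribosomes together with the mRNA bound to them. The RNA of each mouse was read on 1 Clariom S array, a one-colour Affymetrix microarray on which each gene is read by a set of short probes, and each gene has a log2 signal in each mouse. The labels give no age or sex. The Methods of the study describe sexually mature male mice unless otherwise stated. No unprecipitated muscle and no untagged mouse was used here, so the arrays hold no measure of RNA carried over from untagged cells.

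Collagens are trimers of chains that wind around each other in a triple helix, which needs glycine at every turn and hydroxylated prolines for its stability. Fibrillar collagens make the cross-linked fibres of tendon and of the connective tissue between muscle fibers, while collagen IV forms a network in the basement membrane that wraps each fiber. Other members sit in special places: collagen VI filaments lie next to the basement membrane, collagen XIII is a transmembrane protein of the neuromuscular junction, and collagen XXII is found where muscle meets tendon. In muscle, fibroblasts and other interstitial cells are the best known makers of fibrillar collagens and collagen VI.

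The tagged gene *Rpl22* had a log2 signal of 12.12 ± 0.53 (SD, n = 5) and *Myog* 7.12 ± 0.69 (SD, n = 5). All 12 myofiber markers and all 10 neuromuscular junction markers were called above background by the rule given below, and *Acta1*, *Mb* and *Myh2* each stood at 19.93 ± 0.01 (SD, n = 5). These genes read alike in each mouse, at the top of the signals on the array, so this SD does not measure a spread of expression. The Y-linked gene *Eif2s3y* read 3.54 in mouse 1 and 3.53 in mouse 16, and between 10.42 and 12.73 in mice 3, 11 and 14. *Kdm5d* and *Uty* divided the mice in the same way. Y-linked signals were thus at background in mice 1 and 16, as in females, although the study describes male mice unless otherwise stated. Calls of collagens are therefore also given for mice 3, 11 and 14 alone where they differ.

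Background was read from 1091 odorant receptor genes (Olfr), a family with few known transcripts in muscle. Their 95th percentile on each array served as the cutoff and lay between 5.25 in mouse 16 and 5.32 in mouse 1, with a median odorant receptor at about 4.03. A gene was called when its log2 signal minus that cutoff, here named its distance, exceeded 0 with an adjusted p below 0.05 (limma, adjusted over all 19505 genes). This rule called 8482 genes, which is 43.5% of all genes, and 0.825% of the odorant receptor genes themselves. Probe sets differ in affinity, so a distance describes 1 gene against background and does not rank transcripts by abundance.

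Of the 42 collagen genes, 12 were called above background, or 28.6%, against 43.5% of all genes. The called genes were the fibrillar chains *Col1a1*, *Col1a2*, *Col3a1* and *Col11a2*, the basement membrane chain *Col4a2*, the junction collagen *Col13a1*, the collagen VI chains *Col6a3* and *Col6a4*, and *Col16a1*, *Col20a1*, *Col8a2* and *Col23a1*. Signals exceeded the cutoff in every mouse for 11 collagens (42.5% of all genes did so), in some mice for 8 and in no mouse for 23. Over all 19505 genes, 2774 exceeded it in some mice and 8449 in none. The median distance over the 42 genes was -0.62, and over all genes it was -0.12. Mean signals of the collagens ran from 3.55 for *Col5a1* to 8.08 for *Col16a1*. At an unadjusted p under 0.05 the same fit also gave 12 collagens.

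By class, 4 of 11 fibrillar collagens were called (36.4%), 1 of 8 basement membrane collagens (12.5%) and 1 of 3 junction collagens (33.3%). The median distance was -0.82 for the fibrillar class, -0.84 for the basement membrane class and close to 0 for the junction class. Collagen VI chains gave 2 of 6, the fibril-associated collagens known as FACIT gave 2 of 7, and the remaining types gave 2 of 7. Without mouse 3, 1 collagen VI chain and 1 of the remaining types were called, and without mouse 1, 1 collagen VI chain was. All 6 shares lay below the 43.5% of all genes, and the classes hold so few genes that no difference between them was tested. *Col12a1*, *Col21a1* and *Col7a1* had no probe set under those symbols and were not analysed here.

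**Figure D1:**
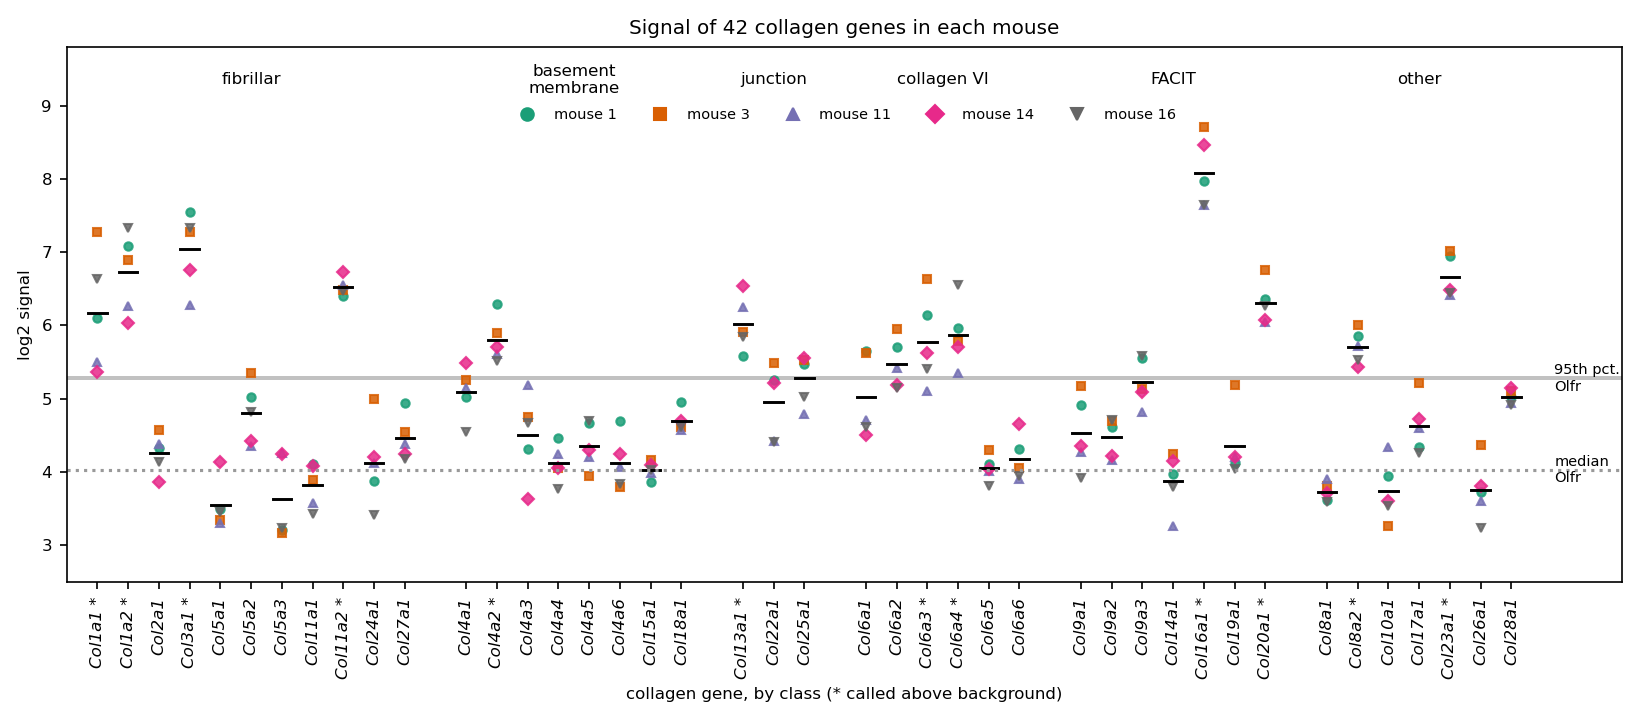
Log2 signal (vertical axis) of each of the 42 collagen genes (horizontal axis, grouped by class) in 5 mice, 1 marker per mouse, with the mean as a black bar, the range of the cutoff over mice as a grey band and the median odorant receptor as a dotted line. An asterisk marks the 12 genes called above background, of which *Col16a1* has the mean farthest from the band at 8.08, while 23 genes lie below the cutoff in every mouse.

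Among the fibrillar collagens, the chains of collagens I and III were above background and varied between mice. The SD was 0.8 for *Col1a1*, 0.55 for *Col1a2* and 0.51 for *Col3a1*. Some other collagens varied as much as the last 2, such as *Col6a3* (SD 0.61) and *Col24a1* (SD 0.58). *Col3a1*, the single chain of collagen III, which accompanies collagen I in the loose connective tissue of muscle, read 7.55, 7.28, 6.28, 6.76 and 7.33 in mice 1, 3, 11, 14 and 16. Mice 11 and 14 were the lowest, and all 5 signals were above the cutoff. Its distance was 1.76 (SE 0.19, adjusted p = 2.83e-06 from limma).

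*Col1a2*, the minor chain of collagen I, read 7.09, 6.89, 6.27, 6.04 and 7.33 in the same order of mice, again lowest in mice 11 and 14. Its distance was 1.45 (SE 0.20, adjusted p = 2.31e-05 from limma). *Col1a1*, the major chain of the same protein, read 6.10, 7.27, 5.50, 5.36 and 6.64. Mouse 3 was the highest for *Col1a1*, and mice 11 and 14 came within 0.3 log2 units of the cutoff. Its distance of 0.90 (SE 0.25, adjusted p = 0.00564 from limma) was the least certain of the 3, and the call was lost when only mice 3, 11 and 14 were used (distance 0.77) or when the 99th percentile of odorant receptors set the cutoff (distance 0.36). The call was also lost with keratin-associated protein and beta-defensin genes as background (distance 0.34).

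*Col11a2*, a chain of collagen XI that is best known from cartilage, showed the least spread of the called collagens. It read 6.40, 6.49, 6.55, 6.73 and 6.47, with an SD of 0.12, and its distance was 1.25 (SE 0.13, adjusted p = 2.86e-06 from limma). Its partner chain *Col11a1* was below the cutoff in every mouse, at 3.82 ± 0.30 (SD, n = 5).

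The collagen V chains, which join collagen I in mixed fibrils, were not called. *Col5a2* read 5.03, 5.35, 4.36, 4.43 and 4.82, above the cutoff in mouse 3 alone, and its distance of -0.48 (SE 0.17) was below 0 (adjusted p = 0.0199 from limma). *Col5a1* stood at 3.55 ± 0.34 (SD, n = 5) and *Col5a3* at 3.63 ± 0.57 (SD, n = 5), both below the median odorant receptor on average. The cartilage chain *Col2a1* and the less common fibrillar chains *Col24a1* and *Col27a1* had means between 4.12 and 4.46 and were above the cutoff in no mouse.

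Promoters are shown for *Col1a2* and *Col3a1*, which were low in the same mice, and for *Col11a2*, which was not. The windows hold the 150 bases before the first listed transcript start in RefSeq on GRCm38.p6, read 5′ to 3′ on the strand of the gene, with capitals for CCAAT or TATAAA found on either strand (as CCAAT or ATTGG, and TATAAA or TTTATA). *Col1a2* lies at chr6:4505468-4505617 on the plus strand, *Col3a1* at chr1:45311388-45311537 on the plus strand and *Col11a2* at chr17:34038988-34039137 on the plus strand.
Col1a2: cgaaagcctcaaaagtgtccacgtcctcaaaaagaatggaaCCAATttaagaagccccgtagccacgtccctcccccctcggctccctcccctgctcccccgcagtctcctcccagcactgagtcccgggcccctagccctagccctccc
Col3a1: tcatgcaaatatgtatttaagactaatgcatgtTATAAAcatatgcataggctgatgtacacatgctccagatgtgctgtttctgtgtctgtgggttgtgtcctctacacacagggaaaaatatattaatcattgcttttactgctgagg
Col11a2: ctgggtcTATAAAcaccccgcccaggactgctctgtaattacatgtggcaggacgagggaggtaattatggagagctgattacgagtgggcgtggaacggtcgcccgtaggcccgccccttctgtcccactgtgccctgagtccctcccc
The CCAAT letters of *Col1a2* began at -109 from the start, and the TATAAA letters began at -117 in *Col3a1* and -143 in *Col11a2*. The GC content was 62.7% for *Col1a2* and 37.3% for *Col3a1*. *Col1a1*, which was low in the same mice, had no promoter listed, and a link between these letters and the signals was not tested. Promoters were found in the table for 34 of the 42 collagens. CCAAT occurred in 7 of them (20.6%) and in 25.3% of all 27025 promoters, and TATAAA occurred in 4 (11.8%) and in 8.08% of all promoters. Of the 11 called collagens with a promoter, 3 held CCAAT (27.3%) and 2 held TATAAA (18.2%). These letters are a description of the windows and mark no known binding.

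Basement membrane collagens stayed mostly within the range of the odorant receptors. *Col4a1* and *Col4a2* encode the chains that combine into the common collagen IV trimer, and the call was made for *Col4a2* but not for *Col4a1*. *Col4a2* read 6.29, 5.90, 5.61, 5.70 and 5.52 in mice 1, 3, 11, 14 and 16, above the cutoff in all 5 and highest in mouse 1. Its distance was 0.53 (SE 0.15, adjusted p = 0.00576 from limma).

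*Col4a1* read 5.03, 5.25, 5.15, 5.49 and 4.54, above the cutoff in mouse 14 alone. Its distance was -0.19 (SE 0.16, adjusted p = 0.28 from limma), so it could not be told from the cutoff in either direction, and its mean was above 94.9% of the odorant receptors. On chromosome 8 these genes run in opposite directions from start sites 21 bases apart. The difference between these separate probe sets was not tested. The call of *Col4a2* was lost when the 99th percentile, vomeronasal receptor genes or keratin-associated protein and beta-defensin genes set the background.

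The other 6 basement membrane collagens were above the cutoff in no mouse. *Col4a3*, *Col4a4*, *Col4a5* and *Col4a6*, which form the collagen IV trimers of kidney, lung and other special basement membranes, had means between 4.12 and 4.51. *Col15a1*, whose product links the basement membrane to collagen fibrils in muscle and capillaries, stood at 4.03 ± 0.11 (SD, n = 5), level with the median odorant receptor. *Col18a1*, the source of the fragment endostatin, was closer to the cutoff at 4.69 ± 0.15 (SD, n = 5).

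Of the junction collagens, *Col13a1* was called, and *Col25a1* and *Col22a1* lay about the cutoff. *Col13a1*, which stabilizes acetylcholine receptor clusters at the neuromuscular junction, read 5.58, 5.91, 6.25, 6.54 and 5.84 in mice 1, 3, 11, 14 and 16. All 5 were above the cutoff, with mouse 14 the highest and mouse 1 the lowest. Its distance was 0.75 (SE 0.16, adjusted p = 0.00111 from limma). The call was lost with the 99th percentile of odorant receptors and with keratin-associated protein and beta-defensin genes as background (distance 0.19).

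*Col25a1*, a transmembrane collagen that muscle needs to attract motor axons during development, read 5.47, 5.53, 4.79, 5.56 and 5.03. Mice 1, 3 and 14 were above the cutoff and mice 11 and 16 below, and the mean of 5.28 ± 0.35 (SD, n = 5) equalled the cutoff (adjusted p = 0.995 from limma). *Col22a1*, the myotendinous junction collagen, read 5.25, 5.49, 4.43, 5.22 and 4.41, above the cutoff in mouse 3 alone. Its distance was -0.32 (SE 0.19, adjusted p = 0.129 from limma). Mice 11 and 16 were the lowest for both genes.

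The promoter window of *Col13a1* is shown because it was high in mice 11 and 14, where collagens I and III were low. It lies at chr10:61979109-61979258 on the minus strand of GRCm38.p6 and was read from RefSeq as above.
Col13a1: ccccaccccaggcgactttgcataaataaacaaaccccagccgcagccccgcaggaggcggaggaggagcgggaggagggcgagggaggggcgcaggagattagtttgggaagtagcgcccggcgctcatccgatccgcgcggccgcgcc
Neither set of letters occurred in it, and its GC content was 68.7%, beside a median of 62.7% over the collagen promoters and 54.0% over all promoters.

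Other components of the neuromuscular junction were also above background. *Musk*, the kinase that builds the postsynaptic site, had a distance of 6.20 (adjusted p = 6.23e-11 from limma). *Colq*, the collagen-like tail that anchors acetylcholinesterase and lies outside the collagen gene symbols, had a distance of 5.02, and *Chrna1*, a subunit of the muscle acetylcholine receptor, had 3.40. All 10 markers of this list and 1 of the 3 junction collagens were above the cutoff in every mouse, beside 42.5% of all genes.

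Collagen VI is built from the chains of *Col6a1*, *Col6a2* and a longer partner chain, usually that of *Col6a3*, and mutations in these genes cause muscular dystrophy in humans. *Col6a3* read 6.14, 6.64, 5.11, 5.62 and 5.40 in mice 1, 3, 11, 14 and 16, above the cutoff in all but mouse 11. Its distance was 0.50 (SE 0.21, adjusted p = 0.0384 from limma), and it was not called without mouse 1 (distance 0.42) or without mouse 3 (distance 0.29). Nor was *Col6a3* called over mice 3, 11 and 14, with the 99th percentile of odorant receptors or with either of the other background sets. *Col6a2* read 5.70, 5.95, 5.42, 5.19 and 5.15, above the cutoff in mice 1, 3 and 11, with a distance of 0.21 (SE 0.16, adjusted p = 0.236 from limma).

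*Col6a1* read 5.65, 5.62, 4.71, 4.51 and 4.62, above the cutoff in mice 1 and 3 and well below it in the other mice. Its distance was -0.26 (SE 0.20, adjusted p = 0.237 from limma). All 3 of these genes exceeded their own mean in mice 1 and 3 and fell short of it in mice 11, 14 and 16. *Col6a4*, an alternative to the chain of *Col6a3* in the mouse, followed another order at 5.96, 5.79, 5.35, 5.71 and 6.55, with mouse 16 the highest. Its distance was 0.59 (SE 0.18, adjusted p = 0.00757 from limma). *Col6a4* was not called over mice 3, 11 and 14 (distance 0.34) or with the 99th percentile of odorant receptors (distance 0.05). Nor was it called with either of the other background sets. The related *Col6a5* and *Col6a6* were above the cutoff in no mouse.

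*Col16a1*, a FACIT collagen that binds integrins and fibrils in skin and cartilage, had the distance farthest from 0 of the 42 collagens. It read 7.97, 8.71, 7.64, 8.46 and 7.64 in mice 1, 3, 11, 14 and 16, so that mice 3 and 14 were the highest and mice 11 and 16 the lowest. The distance was 2.81 (SE 0.18, adjusted p = 3.33e-08 from limma). *Col20a1*, a little studied collagen of the same family, read 6.36, 6.76, 6.05, 6.07 and 6.26, at a distance of 1.02 (SE 0.15, adjusted p = 4.82e-05 from limma).

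*Col9a3*, a chain of the cartilage collagen IX, straddled the cutoff at 5.56, 5.13, 4.82, 5.09 and 5.58, above it in mice 1 and 16, with a distance of -0.04 (SE 0.16, adjusted p = 0.799 from limma). Its partner chains *Col9a1* and *Col9a2* and the FACIT members *Col14a1* and *Col19a1* were above the cutoff in no mouse. *Col14a1*, a collagen of the interstitial tissue of muscle and tendon, stood at 3.88 ± 0.39 (SD, n = 5).

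Of the remaining types, *Col23a1*, a transmembrane collagen, read 6.95, 7.02, 6.42, 6.49 and 6.44, higher in mice 1 and 3 than in the others. Its distance was 1.39 (SE 0.15, adjusted p = 3.30e-06 from limma). *Col8a2*, a short-chain collagen of the corneal endothelial membrane, read 5.86, 6.01, 5.72, 5.44 and 5.53, all above the cutoff by less than 1 log2 unit. Its distance was 0.43 (SE 0.14, adjusted p = 0.0132 from limma). *Col8a2* was not called without mouse 3 (distance 0.35) or over mice 3, 11 and 14 (distance 0.45). Nor was it called with the 99th percentile of odorant receptors (distance -0.11) or with either of the other background sets. *Col8a1*, *Col10a1*, *Col17a1*, *Col26a1* and *Col28a1* were above the cutoff in no mouse. *Col28a1*, a collagen of peripheral nerve, was the nearest of them at 5.02 ± 0.10 (SD, n = 5).

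**Figure D2:**
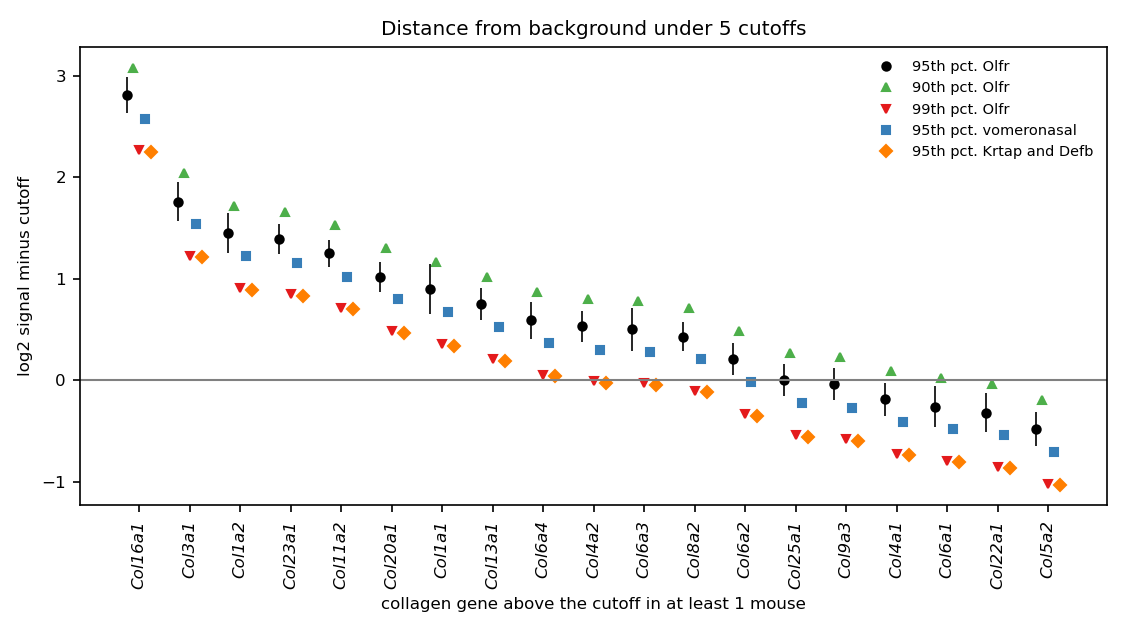
Distance, as log2 signal minus cutoff (vertical axis), of the 19 collagens above the cutoff in at least 1 mouse (horizontal axis) for 5 choices of cutoff, with the standard error as a bar on the main choice in black. *Col16a1*, *Col3a1*, *Col1a2*, *Col23a1*, *Col11a2*, *Col20a1*, *Col1a1*, *Col13a1* and *Col6a4* lie above 0 for every choice, the last at 0.04 or more, and of the genes called, *Col4a2*, *Col6a3* and *Col8a2* fall below 0 with the 99th percentile of odorant receptors or with the Krtap and Defb genes.

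With the 90th percentile of odorant receptors 13 collagens were called, with *Col6a2* added, and with the 99th percentile 6 were. With vomeronasal receptor genes as background 8 were called, and with keratin-associated protein and beta-defensin genes 6. Over mice 3, 11 and 14 alone 8 were called, without *Col1a1*, *Col6a3*, *Col6a4* and *Col8a2*. *Col1a2*, *Col3a1*, *Col11a2*, *Col16a1*, *Col20a1* and *Col23a1* were called in all 14 other fits.

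Differences between the 5 mice were then described for the 12 called collagens, as the deviation of each mouse from the mean of the gene. Mouse 3 had the highest signal for 6 of the 12, and for 17.6% of all called genes, and mouse 11 had the highest for none and the lowest for 5. Of all called genes, mouse 11 was highest for 19.7% and lowest for 17.8%. Mouse 14 was highest for 26.7% of them and lowest for 24.1%, the largest share of any mouse at both ends. The median deviation was 0.27 in mouse 3 and -0.35 in mouse 11. Over all 8482 called genes the medians for the 5 mice lay between -0.04 and 0.02. The median SD was 0.408 for called collagens and 0.363 for all called genes, and 7 of the 12 were above the latter.

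*Col1a1*, *Col1a2* and *Col3a1*, a group chosen after their values were seen, had mice 11 and 14 as their lowest pair in every case. Their median deviations were 0.37, 0.24, -0.67, -0.68 and 0.46 in mice 1, 3, 11, 14 and 16. The gap between the highest and lowest mouse was 3.77-fold for *Col1a1*, 2.45-fold for *Col1a2* and 2.40-fold for *Col3a1*. *Col13a1* went the other way, with mouse 14 highest, mouse 11 next and mouse 1 lowest. *Col11a2* had the same order but varied little, at 0.02 above its mean in mouse 11 and 0.2 above it in mouse 14. With 5 mice of 1 group and no other label, these patterns have no test. Mice 1 and 16, where Y-linked genes were at background, were the highest pair for *Col1a2* and *Col3a1*, while mouse 3 was highest for *Col1a1*. The part of sex was not tested.

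**Figure D3:**
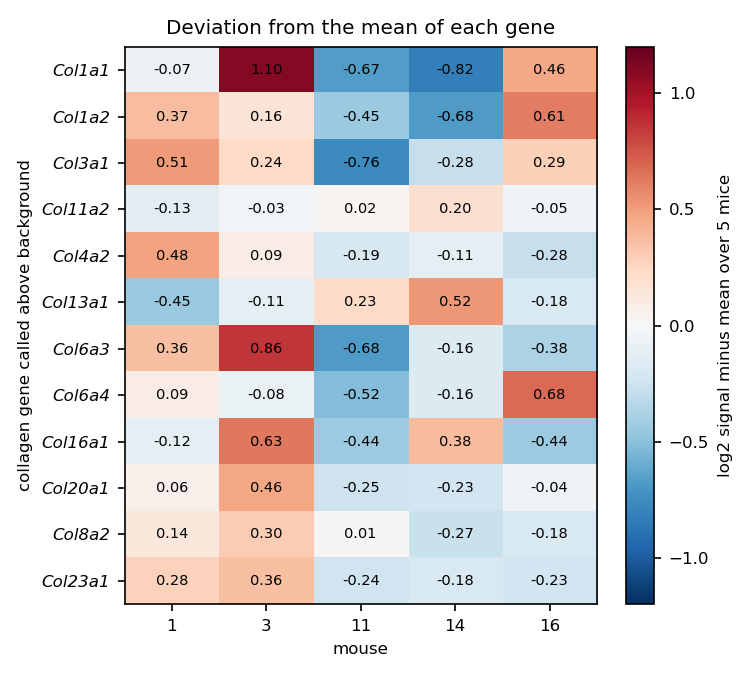
Deviation of each mouse (columns) from the gene mean in log2 units (colour and printed value) for the 12 called collagens (rows). *Col1a1*, *Col1a2* and *Col3a1* are below their mean in mice 11 and 14 and, apart from *Col1a1* in mouse 1, above it in the others. *Col13a1* and *Col11a2* are above their mean in mice 11 and 14, *Col11a2* by only 0.02 in mouse 11.

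Markers of interstitial cells were read on the same arrays. Of 11 fibroblast markers measured, 5 were called (45.5%, beside 43.5% of all genes), namely *Lum*, *Cd34*, *Tnxb*, *Postn* and *Dpt*, and *Pi16*, *Mfap5*, *Clec3b*, *Thy1*, *Scara5* and *Smoc2* were above the cutoff in no mouse. The mean of the list was 5.57, 5.75, 5.27, 5.39 and 5.59 in mice 1, 3, 11, 14 and 16, with mice 11 and 14 the lowest, but no called marker had that pair as its lowest 2. *Dpt* was highest in mouse 14 at 6.88 and *Postn* was highest in mouse 11 at 7.19. *Pdgfra*, *Fbn1* and *Ly6a* were not analysed here.

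Of 8 tendon cell markers, 3 were called (37.5%), namely *Fmod*, *Thbs4* and *Scx*, and *Mkx*, *Tnc* and *Kera* were above the cutoff in no mouse. The list mean ran from 4.69 in mouse 14 and 4.95 in mouse 11 to 5.67 in mouse 1. Mice 14 and 11 were the lowest pair for *Fmod* (4.32 and 6.03) and for *Thbs4* (6.10 and 6.22). Other markers of the list did not share that pair. *Scx* was lowest in mouse 3 at 5.39. *Comp*, above the cutoff in 4 mice but not called, was lowest in mouse 11 at 5.22 and read 5.54 in mouse 14 and 5.37 in mouse 3. *Mkx* was highest in mouse 14 at 4.94. *Tnmd*, a tendon membrane protein, was above the cutoff in mouse 1 alone, at 6.57. Without mouse 16, 1 tendon marker was called. The part of these cells in the collagen signals was not tested, and in a pulldown from whole muscle fewer cells of a type and less RNA per cell cannot be told apart.

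Markers of other cell types were counted in the same way, beside the 43.5% of all genes. Endothelial markers were called for 6 of 11 (54.5%), with *Cdh5*, *Kdr* and *Tek* the farthest from the cutoff, and smooth muscle and pericyte markers for 5 of 10, led by *Rgs5*, *Acta2* and *Tagln*. Their list means stayed between 5.40 and 5.85 and between 5.84 and 6.09 over the 5 mice. Schwann cell markers gave 2 of 6 (*Mbp* and *Erbb3*), satellite cell markers 2 of 8 (*Cdh15* and *Chodl*, with *Pax7* above the cutoff in no mouse) and immune markers 1 of 8 (*Mrc1*). Satellite cell markers gave 1 call without mouse 1 or without mouse 16, and immune markers gave 2 without mouse 16. Their part in the collagen signals was not tested.

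Collagen chains are hydroxylated, glycosylated and folded in the endoplasmic reticulum before export, and most genes of this step were above background. Of 18 folding and modification genes, 15 were called (83.3%, beside 43.5% of all genes), with a median distance of 2.29. *Hsp90b1*, the general chaperone GRP94, had a distance of 7.58, *Colgalt1*, which adds galactose to hydroxylysine, 5.90, and *P4hb*, the disulfide isomerase subunit of prolyl hydroxylase, 5.49. *Serpinh1*, the collagen-specific chaperone HSP47, read 7.87, 8.19, 8.07, 7.06 and 7.98 in mice 1, 3, 11, 14 and 16, lowest in mouse 14 (distance 2.56, adjusted p = 5.87e-08 from limma). The mean of the whole list was also lowest in mouse 14, at 7.38, and lay between 7.92 and 8.17 in the other mice. *Colgalt2* and *P3h3* were above the cutoff in no mouse. Several members, such as *Hsp90b1*, *P4hb* and *Pdia3*, serve the folding of many secreted proteins.

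Of 10 procollagen export genes, 8 were called (80.0%, beside 43.5% of all genes). *Mia2* and *Mia3*, whose products help load large cargo into COPII vesicles, had distances of 8.27 and 4.99. *Tmem38b*, an endoplasmic reticulum cation channel whose loss impairs collagen modification in bone, had 6.43, and the COPII coat gene *Sec31a* had 6.16. *Sec24d*, a COPII cargo adaptor, and *Creb3l1*, a transcription factor that drives collagen I in osteoblasts, were above the cutoff in no mouse. As with the folding genes, most of this list serves secretion in general.

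For the steps outside the cell, 2 of 11 genes for propeptide cleavage and cross-linking were called (18.2%, beside 43.5% of all genes): the cross-linking oxidase *Loxl1*, at 6.14 ± 0.23 (SD, n = 5), and the procollagen protease *Adamts14*, at 6.01 ± 0.23 (SD, n = 5). Lysyl oxidase itself, *Lox*, stood at 3.94 ± 0.71 (SD, n = 5), and *Bmp1*, which removes the carboxyl propeptide of fibrillar collagens, at 4.15 ± 0.73 (SD, n = 5), both above the cutoff in no mouse. Of 12 degradation genes, 3 were called (25.0%): the inhibitors *Timp2* and *Timp4* and the gelatinase *Mmp2*, the last at 5.61 ± 0.22 (SD, n = 5), above the cutoff in 4 mice. *Mmp2* was not called in 10 of the 14 other fits, among them those without mouse 1, 3, 11 or 16. Collagenases *Mmp8*, *Mmp13* and *Mmp14* were above the cutoff in no mouse.

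Of 11 genes listed as collagen receptors, 5 were called (45.5%), a share near that of all genes (43.5%). The integrin subunit *Itgb1* had a distance of 9.06, *Itga7* 5.14 and the phosphatase *Ptprs* 2.77, and *Ddr1* and *Itga3* were called within 1 log2 unit of the cutoff. *Itga7* and *Itga3* pair with *Itgb1* chiefly as laminin receptors, and *Ptprs* binds proteoglycans. The collagen-binding partners *Itga2* and *Itga11* were above the cutoff in no mouse, and *Ddr2*, the fibrillar collagen receptor kinase, read 5.33, 5.96, 5.30, 5.26 and 5.20 and was not called (adjusted p = 0.428 from limma). *Itga1* and *Itga10* were not analysed here.

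Among 14 other basement membrane genes, 6 were called (42.9%), a share near the 43.5% of all genes. They were the laminin chains *Lamb2*, *Lamc1*, *Lama2* and *Lama4*, the proteoglycan perlecan (*Hspg2*) and the linker nidogen (*Nid1*). *Lama2*, which encodes the laminin chain of the muscle fiber basement membrane, read 7.95, 7.83, 7.52, 6.52 and 7.96 in mice 1, 3, 11, 14 and 16, lowest in mouse 14 (distance 2.28, adjusted p = 7.19e-07 from limma). The mean of the list was also lowest in mouse 14, at 5.52, and lay between 5.74 and 5.96 in the other mice. *Lamb2* had a distance of 4.75 and *Hspg2* of 2.54. *Agrn* and *Nid2* were above the cutoff in no mouse.

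**Figure D4:**
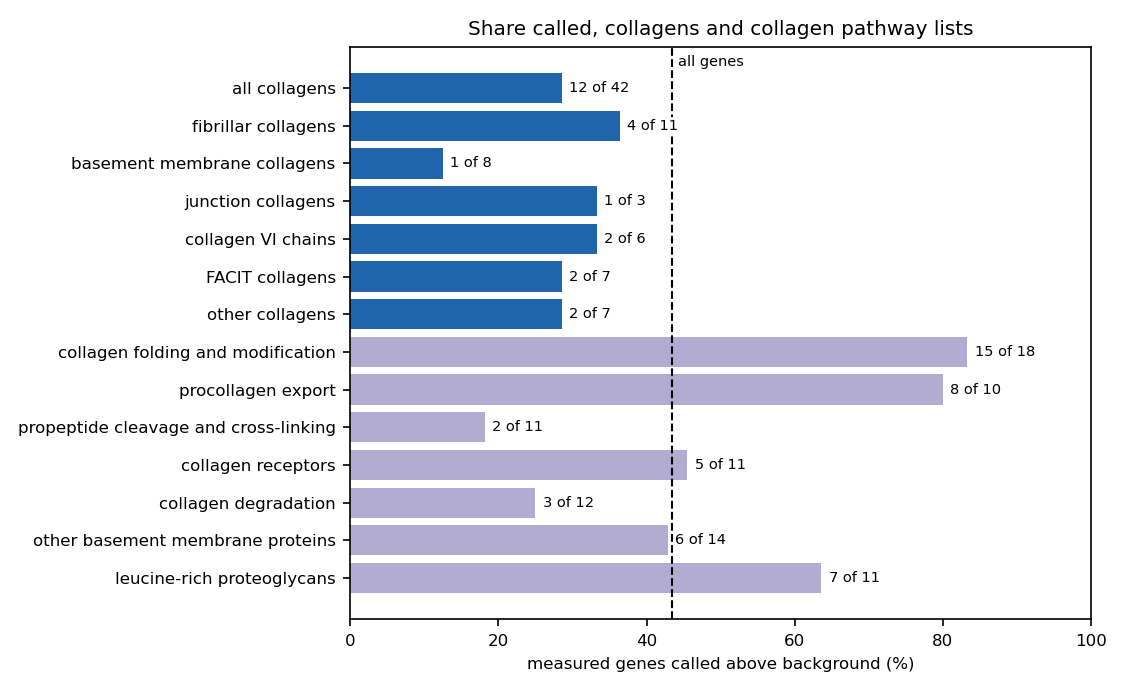
Share of measured genes called above background (horizontal axis, percent) for the collagens and their classes (dark bars) and for lists of the collagen pathway (light bars), with the number called of the number measured beside each bar and all genes (43.5%) as a dashed line. Folding and modification (15 of 18) and export (8 of 10) lie to the right of the line, and every collagen class lies to its left.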

How the data were processed

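HA-tagged ribosomes were precipitated from left soleus of 5 mice, and the bound RNA was run on Clariom S mouse arrays (Pico assay). The authors processed the hybridization intensities in Transcriptome Analysis Console 4.0 with its default configuration and deposited log2 signals per probe set, 1 column per mouse. Which algorithm summarized the probes, and on which genome build they were annotated, is not given in the sources used here. Of 22206 probe sets, 19572 were annotated with 1 symbol, 0 with several and 2634 with none. Where a gene had more than 1 probe set (55 genes), their mean was taken, and no further normalization was applied (array medians 5.11 to 5.20).

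Distances from the 95th percentile of 1091 odorant receptor genes were fitted per gene by limma 3.58.1 under R 4.3.3 (a one-sample design, eBayes, two-sided, Benjamini-Hochberg over 19505 genes), after a check on simulated data. P-values cover the spread between 5 mice, whose number limits precision. Every called collagen and every collagen above the cutoff in a mouse is named, with the 3 genes farthest above the cutoff of each list; others were named for their function or as markers after values were seen. Members and lists were chosen with earlier results of these data known. Alternatives were 2 other background sets, the 90th and 99th percentiles, renewed quantile normalization, a trended and robust prior, a filter on dim probe sets, the highest probe set, a rule with no model, mice 3, 11 and 14, and each mouse left out. Protein sequence features were not analysed here. Tables and figures used Python 3.11.15, pandas 2.3.3, numpy 2.4.6 and matplotlib 3.10.9.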

Additional observations from a re-analysis of the deposited data

Results flagged for a closer look

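Over the collagens, every gene of the lists and the checks of the pulldown, 215 genes in all, 19 had 1 mouse apart from the other 4 with a Dixon's ratio over 0.71, the limit for 5 mice. Chance flags about 1 in 20, which is 10.8 of 215. Of the 42 collagens 2 were apart, where chance gives 2.1. *Col19a1*, a FACIT collagen, had a ratio of 0.85, with mouse 3 at 5.19 and the others between 4.04 and 4.21, all below the cutoff. *Col5a1* had a ratio of 0.768, with mouse 14 at 4.14 and the others between 3.31 and 3.50, also all below the cutoff. *Lamc1*, a laminin chain of the muscle fiber basement membrane, had a ratio of 0.868, with mouse 14 at 5.91 and the others between 7.86 and 8.16. *Hsp90b1*, an endoplasmic reticulum chaperone, had a ratio of 0.789, with mouse 14 again the lowest at 11.21 and the others between 13.09 and 13.60. The myofiber genes *Acta1*, *Mb* and *Myh2* each had a ratio of 1, since 4 mice shared 1 value and mouse 16 was lower. In every mouse these 3 genes sat at the top of the signals on the array. Mouse 14 was also the lowest for *Serpinh1* (ratio 0.719, at 7.06), the myofiber gene *Tnnt1* (0.767, at 19.84) and the endothelial marker *Cldn5* (0.809, at 3.42), and the highest for the smooth muscle marker *Myh11* (0.744, at 5.97). Mouse 3 was the highest for the collagen receptor *Ddr2* (ratio 0.832, at 5.96) and the proteoglycan *Omd* (0.753, at 5.31). Mouse 11 was the lowest for the prolyl hydroxylase *P4ha3* (ratio 0.819, at 5.00) and the highest for the lysyl oxidase *Lox* (0.754, at 5.17). Mouse 1 was the lowest for *Loxl3* (ratio 0.852). Mouse 16 was the lowest for *Tnc* (ratio 0.769, at 3.83) and *Lyz2* (0.738, at 4.84) and the highest for *Smoc2* (0.711, at 4.02).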

How the results depend on the processing

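The call on 12 collagens fell to 6 with the 99th percentile of odorant receptors and to 6 with keratin-associated protein and beta-defensin genes as background, whose mean cutoffs were 5.82 and 5.83 in place of 5.28. The share of all genes called was 38.2% and 38.1% there, in place of 43.5%. The basement membrane count became 0 with both and 0 with vomeronasal receptor genes, and the junction count 0 with both. Collagen VI calls (2) became 0 with all 3 backgrounds and over mice 3, 11 and 14, and 1 with no model. With the 99th percentile and with keratin-associated protein and beta-defensin genes, receptors (5) became 3, cross-linking (2) became 0, endothelial markers (6) became 2 and Schwann markers (2) became 1. Satellite markers (2) and the remaining collagen types (2) became 1 with all 3 backgrounds and over mice 3, 11 and 14. Tendon markers (3) became 1 with keratin-associated protein and beta-defensin genes and over mice 3, 11 and 14, and immune markers (1) became 2 over these mice and with the 90th percentile. Over mice 3, 11 and 14, proteoglycans (7) also became 5, folding genes (15) became 14, degradation genes (3) became 2 and smooth muscle markers (5) became 4. Among 19 collagens above the cutoff in any mouse, 217 distances under other settings kept direction and side of the threshold, 21 lost the threshold, 14 gained it and 14 changed sign. With the 90th percentile, distances turned to 0.09 for *Col4a1*, 0.02 for *Col6a1* and 0.23 for *Col9a3*. With the 99th, they turned to -0.01 for *Col4a2*, -0.33 for *Col6a2*, -0.03 for *Col6a3* and -0.11 for *Col8a2*. With keratin-associated protein and beta-defensin genes, they turned to -0.03 for *Col4a2*, -0.35 for *Col6a2*, -0.05 for *Col6a3* and -0.12 for *Col8a2*, and with vomeronasal genes to -0.02 for *Col6a2*. Over mice 3, 11 and 14, *Col4a1* turned to 0.02. Leaving out each mouse moved *Col9a3* between -0.14 and 0.06. No paired analysis was possible because there was 1 group.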

Other observations

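Small leucine-rich proteoglycans bind collagen fibrils and set their width, and 7 of the 11 measured were called above background (63.6%, beside 43.5% of all genes). *Dcn*, the main proteoglycan of muscle connective tissue, read 9.24, 10.03, 8.04, 9.98 and 9.43 in mice 1, 3, 11, 14 and 16, with mouse 11 the lowest. *Aspn*, a relative of *Dcn* that binds collagen and TGF-beta, read 11.19, 9.88, 11.87, 7.11 and 11.83, with mouse 14 the lowest and mouse 11 the highest. *Fmod*, which shapes fibrils in tendon, read 7.19, 7.86, 6.03, 4.32 and 8.97, below the cutoff in mouse 14. *Aspn* and *Fmod* were thus lowest in mouse 14 and *Dcn* in mouse 11. Of the other called members, *Ogn* (8.01), *Bgn* (6.55) and *Prelp* (5.29) were lowest in mouse 14, and *Lum* (6.97) in mouse 11. *Ogn* was highest in mouse 16 at 10.13. The mean of the list was 6.03 in mouse 14 and between 6.52 and 7.12 in the other mice. *Kera*, known from the cornea and tendon, and *Podn* were above the cutoff in no mouse.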
